A study of Mus musculus with 2 samples.

Results

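Sox9, Hes1, Sox4, Hhex, Prom1 and Cd24a are 6 genes known as regulators or surface markers of pancreatic duct and progenitor cells. They were chosen by name among the 14789 gene symbols of the table, not by a measured value, and each of the 6 had a row. Their levels were compared between acinar, ductal, endothelial and all remaining cells of mouse pancreas. The 728 cells came from adult mice of the genotype Tff2CreERT2; R26-tdTomato that had received tamoxifen. In such mice a Cre recombinase that tamoxifen activates is driven by Tff2, a trefoil factor gene, and it switches on a red fluorescent protein from the Rosa26 locus in the cell and its descendants. Digested whole pancreas was sorted for the surface phenotype CD45-TER119-EpCAM+RFP+ and taken into 10x Genomics libraries. Both labelled samples carry this genotype and treatment, they are biological replicates of 1 group, and no control group is part of the study. The sources used here do not state how long after tamoxifen the cells were sorted. Cells could not be tied to either replicate, so every value below comes from 1 pooled sample, has no replicate check and carries counting error only.

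Pancreatic acinar cells make digestive enzymes, and duct cells line the channels that carry them away and add bicarbonate. SOX9 and HHEX are transcription factors of the duct lineage. HES1 is a repressor that Notch receptors switch on through RBPJ when a ligand on a neighbouring cell binds them. SOX4 is a transcription factor related to SOX9 that acts in endocrine and many other progenitors. Prominin-1, the product of Prom1, sits on membrane protrusions of epithelial cells, and CD24, the product of Cd24a, is a small glycoprotein on epithelial, B lineage and red cell precursors. Both have been used to sort pancreatic duct and progenitor cells.

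Positions are those of GENCODE M21 on GRCm38. Sox9 spans chr11:112782224-112787760 on the plus strand, and Hes1 spans chr16:30064384-30067796 on the plus strand. Sox4 lies at chr13:28948919-28953713 on the minus strand, and Hhex at chr19:37434810-37440731 on the plus strand. Prom1 lies at chr5:43993620-44102032 on the minus strand, and Cd24a at chr10:43578284-43584265 on the plus strand. The annotation places Gm26735, a noncoding gene on the opposite strand with 1 UMI in the table, over Sox4. Gm42716 and the antisense gene Gm16401 overlap Prom1, and neither was a row of the table. The sources used here do not state whether reads were counted by strand.

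RefSeq promoter sequences were matched for 3 of the 6 genes, and those of Sox4 and Hhex are shown because both genes were read in duct and in endothelial cells. They run 5′ to 3′ on the gene's strand and end at the first base before the annotated exon, at chr13:28953714-28953949 on the minus strand for Sox4 and at chr19:37434591-37434809 on the plus strand for Hhex (GRCm38.p6). Capitals mark the letters TGGGAA, a core bound by RBPJ, and GGAATG, a core bound by TEAD factors.
Sox4: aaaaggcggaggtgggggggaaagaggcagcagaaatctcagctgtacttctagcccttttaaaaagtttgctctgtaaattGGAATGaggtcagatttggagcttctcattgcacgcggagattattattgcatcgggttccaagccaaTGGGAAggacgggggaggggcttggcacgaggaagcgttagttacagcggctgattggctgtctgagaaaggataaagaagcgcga
Hhex: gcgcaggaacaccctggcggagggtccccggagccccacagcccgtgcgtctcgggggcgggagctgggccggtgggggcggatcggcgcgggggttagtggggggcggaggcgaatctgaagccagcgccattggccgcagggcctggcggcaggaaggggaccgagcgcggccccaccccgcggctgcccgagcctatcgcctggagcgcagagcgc
In the 250 bases before the RefSeq start, Sox4 held TGGGAA at 100 to 95 bases and GGAATG at 168 to 163 bases before that start. The letters CACNAG, the N-box that HES proteins bind, stood in the Sox4 window as CACGAG at 75 to 70 bases before the start. The Hhex window held none of these on either strand, nor ACAATG, a SOX core, which the Sox4 window also lacked. Over 32851 RefSeq windows of that length, 21.6% held TGGGAA, 12.6% GGAATG, 10.7% ACAATG and 36.7% CACNAG on at least 1 strand.

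Cells were classed by their transcripts. A cell was acinar when at least 10% of its UMIs (unique molecular identifiers, the counted transcript molecules) came from 10 enzyme genes (Ctrb1, Try4, Cela1, Prss2, Cela3b, Cpb1, Pnlip, Clps, Cela2a and Cpa1). It was ductal when it was not acinar and had 5 or more UMIs of Krt19, Spp1, Ambp and Epcam. It was endothelial when neither held and it had 5 or more UMIs of Kdr, Cdh5, Pecam1 and Egfl7. This gave 275 acinar, 36 ductal, 160 endothelial and 257 other cells. Among the other cells, marker lists set apart 102 B or plasma cells, 75 T or NK cells, 26 macrophages or dendritic cells, 20 mesenchymal cells, 16 erythroid cells and 2 neutrophils, and 16 remained unassigned. Endothelial and blood lineage cells lie outside the stated sort gate. The ductal class stood clear of its threshold, since its lowest cell had 14 UMIs of the 4 genes and 1 cell outside it had 3 or 4, with 1 UMI of Hes1 and 1 of Sox4. The acinar limit had 13 cells between 5% and 10% and 4 between 10% and 20%.

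The ductal cells were checked against 13 duct markers that the rule did not use. Of these, 12 had UMIs in the ductal cells and Tspan8 had 0, and together they reached 15478 CPM, which is a gene's UMIs scaled to a total of 1000000 UMIs of the class, against 777 in acinar, 694 in endothelial and 188 in other cells. All 7 mesenchymal markers were at 0 in the ductal cells, 7 of 10 further endothelial markers were at 0 with 3 UMIs over the list, and the acinar regulators Ptf1a and Bhlha15 were at 0. Of 6 hepatocyte markers 2 were measured, and the ductal cells held 86 UMIs of Ttr and 6 of Alb, against 43 and 0 in acinar cells. Depth differed between classes, with a median of 3171 UMIs per ductal, 2117 per acinar, 1891.5 per endothelial and 2048 per other cell. Mitochondrial transcripts made 7.51% of UMIs in ductal cells, 1.18% in acinar, 3.99% in endothelial and 3.36% in other cells. The part of Ttr, of depth and of the mitochondrial share in the results was not tested. Enzyme transcripts made 53.3% of acinar UMIs and 1.25% to 1.55% of UMIs in the other 3 classes. The ductal ratios of the 6 genes over acinar cells are therefore also given with totals without the 10 enzyme genes. Ratios of other single genes over acinar cells are on all UMIs. Barcodes ended in 1 in 667 cells and in 2 in 61 cells, of which 4 were ductal and 46 acinar, and no label says which ending is which replicate. The same barcode sequence stood under both endings 7 times, each time in acinar cells.

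Each of the 6 genes had its highest level in the ductal cells. All 6 were at least 2-fold higher there than in acinar cells, a ratio that 73.1% of the 1054 genes with at least 50 UMIs over both classes also reached. Against endothelial cells 5 of 5 genes over that floor were at least 2-fold higher in ductal cells, as were 11.2% of the 1672 genes over the floor. Against other cells the count was 5 of 5, and the background was 28.4% of 1640 genes. Prom1 stayed under the floor in the last 2 comparisons because the other class held 1 UMI. Sox9, Hes1, Sox4, Hhex and Cd24a each had at least 50 UMIs in ductal cells, so they passed the floor through that class alone. Endothelial cells held 383521 UMIs and ductal cells 135029, so a gene of equal level has most of its UMIs in endothelial cells. The counts and the background shares are therefore not like for like. The share against endothelial cells with a floor of 1 UMI is given further below, and it is not like for like either. The median log2 ratio of the genes over the floor was 4.55 against acinar, 2.49 against endothelial and 4.24 against other cells, where the median gene had 2.14, -0.12 and 0.35. Without the enzyme genes in the totals, the background against acinar cells was 51.3%, the median gene 1.07 and the median of the 6 genes 3.47. No replicate check stands behind these counts, and in the 4 ductal cells of ending 2 no gene passed the floor.

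**Figure D1:**
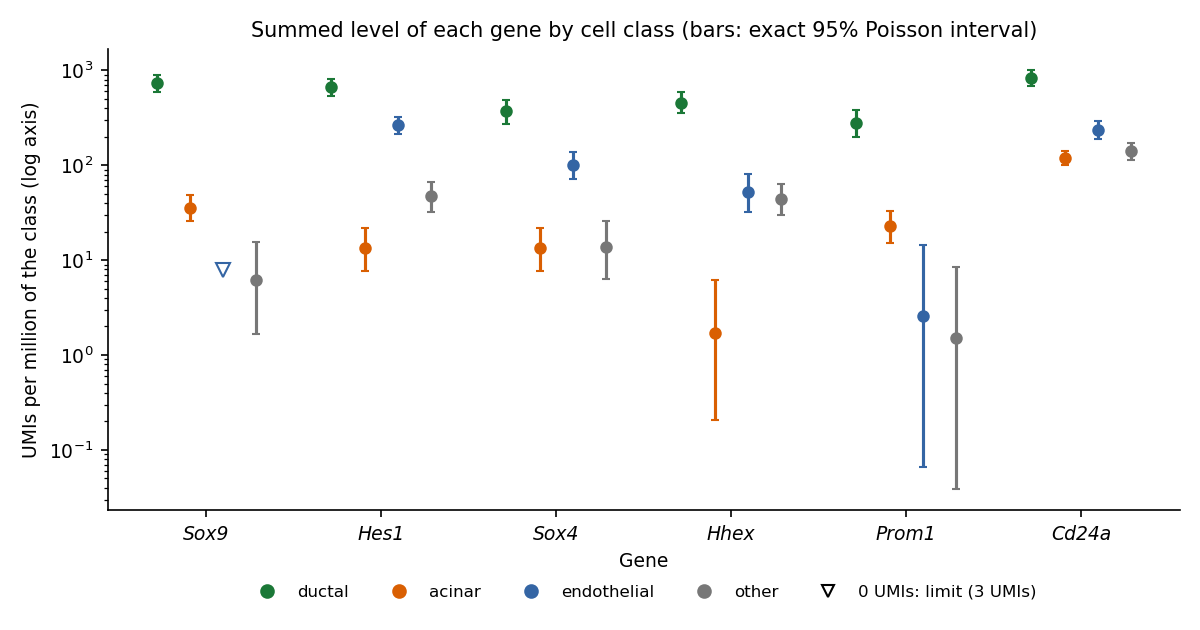
Level of the 6 genes in acinar, ductal, endothelial and other cells, in CPM on a log axis, as points with exact 95% Poisson intervals that cover counting error only; a triangle marks the limit of 3 UMIs where a class had 0. The ductal level is the highest for each gene, from 281 for Prom1 to 837 for Cd24a, and the order of the other 3 classes differs between genes.

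Sox9, which duct cells keep through adult life and acinar cells largely lose, was read 99 times in 28 of 36 ductal cells. Single ductal cells ranged from 0 to 3376 CPM with a median of 722. The summed ductal level was 733 CPM (exact 95% interval 596 to 893), the acinar level 35.6 CPM (25.7 to 48.1; 42 UMIs in 36 of 275 cells) and the level in other cells 6.11 CPM from 4 UMIs in 2 cells. In the 160 endothelial cells Sox9 was not detected, which allows up to 7.82 CPM. The ductal level was 20.6 times the acinar level (14.2 to 30.3), or 9.74 times without the enzyme genes in the totals. It was at least 93.7-fold higher than in endothelial cells and 120 times that in other cells (45.4 to 449). Acinar cells ranked second, and endothelial and other cells could not be told apart.

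Hhex, a homeobox gene of the early foregut, duct and blood lineages, had the highest ratio of ductal to acinar level among the 6 genes. It gave 62 UMIs in 26 of 36 ductal cells, and single cells ranged from 0 to 1948 CPM with a median of 368. Summed over the ductal cells, Hhex stood at 459 CPM (352 to 589). Acinar cells held 2 UMIs, both in 1 cell that also met the ductal rule. The ratio was 271 (71.9 to 2286), or 128 without the enzyme genes in the totals. The 271 acinar cells that did not meet the ductal rule had 0 UMIs. Endothelial cells had 52.1 CPM (31.9 to 80.5) and other cells 44.3 CPM (29.7 to 63.6), a ratio of 1.18 (0.631 to 2.15), so this pair did not differ beyond counting error. Ductal cells were 8.80 times the endothelial level (5.25 to 15.4) and 10.4 times the level of other cells (6.57 to 16.7).

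Within the other cells, Hhex was mainly in the B or plasma cells. They held 21 of its 29 UMIs, in 18 of 102 cells, at 101 CPM (62.4 to 154). T or NK cells held 2 UMIs at 10.2 CPM, and the ratio of B or plasma to T or NK cells was 9.87 (2.41 to 86.9). Macrophages or dendritic cells had 5 UMIs in 4 of 26 cells, and mesenchymal and erythroid cells had 0. Ductal cells were 4.56 times the B or plasma level (2.74 to 7.87).

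Hes1 was shared by ductal and endothelial cells. It gave 90 UMIs in 22 of 36 ductal cells, from 0 to 2913 CPM per cell with a median of 437. It gave 101 UMIs in 67 of 160 endothelial cells. The ductal level was 667 CPM (536 to 819), the endothelial level 263 CPM (215 to 320), other cells had 47.3 CPM (32.2 to 67.2) and acinar cells 13.6 CPM (7.75 to 22.0). On this total the intervals of the 4 classes lay apart. Without the enzyme genes in the totals, acinar cells had 29.1 CPM (16.6 to 47.2) and other cells 47.9 CPM (32.6 to 68.1), which did not differ beyond counting error (ratio 0.606, 0.310 to 1.14). Ductal cells stood at 2.53 times the endothelial (1.88 to 3.40), 14.1 times the other (9.27 to 21.9) and 49.1 times the acinar level (28.7 to 89.6). Without the enzyme genes in the totals the last ratio was 23.3. Among the other cells, 8 of 20 mesenchymal cells held 14 UMIs, a level of 215 CPM (117 to 360), which did not differ from the endothelial level beyond counting error (ratio 0.816, 0.431 to 1.43). The 16 unassigned cells held 8 UMIs of Hes1 in 5 cells, at 339 CPM (146 to 668). None of the 75 T or NK cells had a UMI of Hes1, which allows up to 4.0% of cells and 15.3 CPM.

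The Notch genes around Hes1 were sparse, and few passed the floor. Of 5 Notch ligand genes 4 were measured and none passed it. Ductal cells held 4 ligand UMIs, all of Jag1, and endothelial cells 58, of which 35 were of Dll4, the ligand typical of arterial and sprouting vessels. Of the 4 receptor genes, Notch1 was lower in ductal than in endothelial cells (6 against 66 UMIs, ratio 0.258, 0.0915 to 0.593). Notch2 had 18 UMIs in 9 of 36 ductal cells, 2 in endothelial and 0 in acinar cells, and was 2.49 times higher in ductal than in other cells (1.33 to 4.52). Of 18 genes for Notch processing and transcription, 1 passed the floor against acinar cells. It was higher in ductal cells, as were 73.1% of all genes over the floor. This was Psenen, a subunit of the gamma-secretase that cuts the receptor, at a ratio of 6.84 (4.29 to 10.8). Its log2 ratio was 2.78, where the median gene had 2.14. Against endothelial cells 3 passed, of which Lfng, a glycosyltransferase that tunes ligand choice, was lower in ductal cells (0.178, 0.0354 to 0.551) and the other two lay within 2-fold. Against other cells 2 passed, of which Lfng was lower and Psenen lay within 2-fold. Of the 8 target genes Hes1 was the 1 that passed the floor in each comparison. The targets Hey1 and Nrarp, named after their counts were seen, had 2 and 2 UMIs in ductal cells against 28 and 42 in endothelial cells.

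Sox4 followed the same order as Hes1 at the top. It gave 50 UMIs in 20 of 36 ductal cells, from 0 to 1121 CPM per cell with a median of 227. It gave 39 UMIs in 31 of 160 endothelial cells. The ductal level was 370 CPM (275 to 488) and the endothelial level 102 CPM (72.3 to 139). Other cells had 13.7 CPM from 9 UMIs and acinar cells 13.6 CPM from 16 UMIs, and these did not differ beyond counting error. Sox4 in ductal cells stood at 3.64 times the endothelial (2.35 to 5.68), 26.9 times the other (13.1 to 62.3) and 27.3 times the acinar level (15.3 to 51.4; 12.9 without the enzyme genes in the totals). The highest ductal cell held 9 of the 50 UMIs. Of the 15 SOX genes listed 11 were measured. Sox4 and Sox9 were the 2 that passed the floor against acinar and other cells, both higher in ductal cells (background 73.1% and 28.4%). Against endothelial cells 4 passed, of which Sox17 and Sox18, vascular regulators, had 0 UMIs in ductal cells and 56 and 75 in endothelial cells, at least 6.57-fold and 8.80-fold lower in ductal cells.

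Hhex was the only 1 of 26 duct and pancreas transcription factors to pass the floor and reach 2-fold in any of the 3 comparisons. Of all genes over the floor, 73.1% reached 2-fold against acinar, 11.2% against endothelial and 28.4% against other cells. The TEAD factor Tead2 passed the floor against acinar cells, at 37.0 CPM in ductal and 43.2 CPM in acinar cells. The ratio was 0.857 (0.267 to 2.13) on all UMIs, of which the enzyme genes made 53.3% in acinar and 1.38% in ductal cells. No near equality is read from that ratio. Wwtr1, a coactivator of TEAD factors, passed the floor against endothelial cells, with 9 UMIs in ductal and 50 in endothelial cells. Its ratio was 0.511 (0.221 to 1.05). Other duct factors were read too rarely for the floor, and a few are given as UMIs, chosen after their counts were seen. Prox1, a homeobox factor of duct, liver and lymphatic cells, had 29 UMIs in ductal, 1 in acinar and 0 in endothelial cells. Onecut1 had 13 in ductal and 1 in acinar cells. Foxa2, an endoderm factor, had 9 in ductal and 36 in acinar cells. On all UMIs these are 66.7 and 30.5 CPM, a ratio of 2.18 (0.925 to 4.62). Gata4, an acinar factor, had 1 and 22, a ratio of 0.397 (0.00962 to 2.46). Both intervals include equal levels.

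Of the 67 UMIs of Prom1, 65 were in ductal or acinar cells. Prom1 gave 38 UMIs in 22 of 36 ductal cells, from 0 to 976 CPM per cell with a median of 271, and 27 UMIs in 23 of 275 acinar cells. Endothelial and other cells had 1 UMI each. The ductal level was 281 CPM (199 to 386) and the acinar level 22.9 CPM (15.1 to 33.3), a ratio of 12.3 (7.31 to 20.9), or 5.82 without the enzyme genes in the totals. Against endothelial and other cells the ratios were 108 (18.2 to 4374) and 184 (31.1 to 7467). The width of these intervals comes from the 1 UMI below the line.

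Each of the 4 classes held at least 91 UMIs of Cd24a. It gave 113 UMIs in 34 of 36 ductal cells, from 0 to 2777 CPM per cell with a median of 758, and its ductal level was 837 CPM (690 to 1006). Endothelial cells had 237 CPM (191 to 291; 44 of 160 cells), other cells 141 CPM (113 to 172; 46 of 257 cells) and acinar cells 119 CPM (99.8 to 140; 84 of 275 cells). Other and acinar cells did not differ beyond counting error. The ratios of ductal cells were 7.05 over acinar (5.45 to 9.10), 3.53 over endothelial (2.65 to 4.70) and 5.96 over other cells (4.48 to 7.93). Its log2 ratio over acinar cells, 2.82, lay 0.68 above that of the median gene, the smallest margin of the 6. The order of the lower classes depended on the total. Without the enzyme genes in it, acinar cells had 254 CPM, endothelial cells 241 CPM and other cells 142 CPM. Acinar cells were then 1.79 times the level of other cells (1.36 to 2.35), and the ductal ratio over acinar cells was 3.34.

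Among the other cells, Cd24a split the lymphocytes. B or plasma cells held 61 of its 92 UMIs, at 293 CPM in 32 of 102 cells, while the 75 T or NK cells held none, at least 19.1-fold lower. Erythroid cells held 15 UMIs in 4 of 16 cells, and mesenchymal cells held 0. The 2 neutrophils held 3 UMIs, all in 1 cell, at 831 CPM (171 to 2430). Globin transcripts, which mark red cell RNA, were present in 55 of 160 endothelial, 102 of 275 acinar, 15 of 36 ductal and 83 of 257 other cells. In the 105 endothelial cells without a globin UMI Cd24a stood at 306 CPM (236 to 390). In the 158 with under 10% globin UMIs it stood at 229 CPM (183 to 284), and in the 2 with more at 460 CPM from 6 UMIs. These divisions were made after the values were seen. The part of red cell RNA in these counts was not tested.

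**Figure D2:**
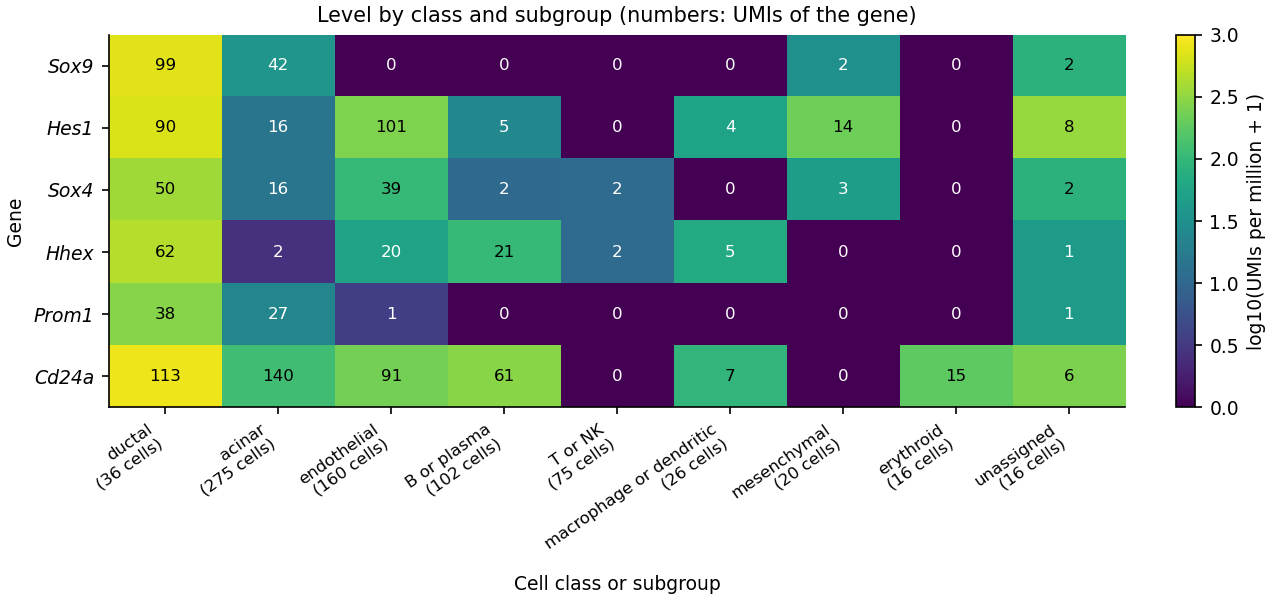
Heat map of the 6 genes (rows) in the ductal, acinar and endothelial cells and the 6 larger subgroups of the other cells (columns), with log10 of CPM plus 1 as colour and the UMIs of the gene as the number in each field. B or plasma cells hold 21 UMIs of Hhex and 61 of Cd24a and mesenchymal cells 14 of Hes1, while T or NK cells hold 0 UMIs of 4 genes and 2 each of Sox4 and Hhex.

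Prom1 and Cd24a belong to a list of 17 surface and enzyme genes used to mark progenitor cells. Against acinar cells 3 passed the floor and all 3 were higher in ductal cells, where 73.1% of all genes over the floor were. The third was Alcam, an adhesion molecule, at a ratio of 22.0 (14.1 to 35.1). Alcam had 73 UMIs in 31 of 36 ductal cells and 1 UMI in endothelial cells. Against endothelial cells 4 passed, with Cd24a and Alcam higher and the integrin subunits Itga6 (0.191, 0.0750 to 0.408) and Itgb1 (0.248, 0.110 to 0.490) lower in ductal cells. Against other cells Cd24a and Alcam passed, both higher. Of 23 duct function genes 21 were measured, and 10 of 10 over the floor were higher in ductal than in acinar cells (background 73.1%, or 51.3% without the enzyme genes in the totals). Among them were the keratin Krt8 at 30.6 (23.2 to 40.8) and the tight junction gene Cldn7 at 56.1 (30.3 to 113). Against endothelial cells 8 of 10 were higher (background 11.2%) and Aqp1, the water channel of ducts and vessels, was lower, with 2 UMIs in ductal and 564 in endothelial cells. Against other cells 9 of 9 were higher (background 28.4%). Of 8 genes of the primary cilium, which duct cells carry, Dcdc2a and Bicc1 passed the floor in each comparison and were higher in ductal cells, at 262 (69.5 to 2214) and 74.9 (34.2 to 194) over acinar cells. Krt8, Cldn7 and their like were among the markers named for ducts, so these counts describe the class.

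The share of cells with a UMI depends on depth, so each cell was also thinned to 1000 UMIs, which left out 0 cells. Cd24a was then found in 21 of 36 ductal cells (58.3%, exact interval 40.8 to 74.5), Hhex in 17 (47.2%), Sox9 in 16 (44.4%), Hes1 and Sox4 in 10 each (27.8%) and Prom1 in 4 (11.1%). Before thinning the shares were 94.4%, 72.2%, 77.8%, 61.1%, 55.6% and 61.1%. In acinar cells the thinned shares were 13.1% for Cd24a, 4.73% for Sox9, 2.91% for Prom1, 1.82% for Sox4, 0.727% for Hes1 and 0.364% for Hhex. For Prom1 the thinned ductal share rested on 4 cells, its interval (3.11% to 26.1%) overlapped that of acinar cells (1.26% to 5.65%), and no order is read from it. For the other 5 genes the thinned ductal and acinar intervals lay apart. Thinning was on all UMIs, of which the 10 enzyme genes made 53.3% in acinar and 1.38% in ductal cells. Thinned acinar cells therefore kept fewer UMIs of the remaining genes, which lowers their shares. The thinned Hes1 share of endothelial cells, 20.6% (14.6 to 27.7), overlapped the ductal share of 27.8% (14.2 to 45.2), and so did the Sox4 share of 10.0% (5.82 to 15.7).

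**Figure D3:**
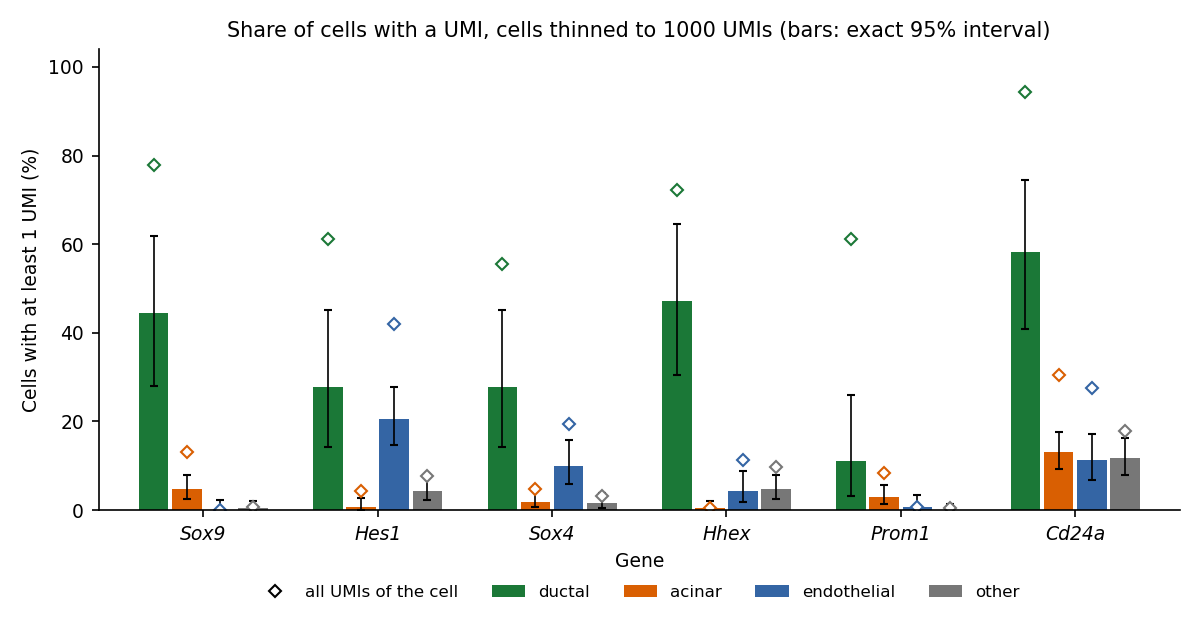
Share of cells with at least 1 UMI of each gene by class, as bars for cells thinned to 1000 UMIs with exact 95% Clopper-Pearson intervals and as open diamonds for all UMIs of the cell. The thinned ductal bars range from 11.1% for Prom1 to 58.3% for Cd24a, and the Hes1 interval of endothelial cells overlaps that of ductal cells.

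The ductal cells were then compared with each other. All 36 had UMIs of at least 2 of the 6 genes, 32 had at least 3 and 5 had all 6. The cells with all 6 had a median of 8928 UMIs, against 2296 in the 4 cells with 2 genes, so the number of genes found moved with depth. At least 3 genes were found in 88.9% of ductal cells (73.9 to 96.9), 2.55% of acinar, 4.38% of endothelial and 0.778% of other cells. After thinning, 14 of 36 ductal cells (38.9%, 23.1 to 56.5) had at least 3, as did 1 acinar, 0 endothelial and 1 other cell.

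The spread of CPM between ductal cells was set beside the spread that counting alone would give at these depths. For Hes1 the coefficient of variation was 1.22 where counting alone gives 0.705, and for Sox9 it was 0.946 where counting gives 0.672. For Hhex the pair was 1.04 and 0.849 and for Sox4 1.11 and 0.946. For Cd24a (0.637 and 0.629) and Prom1 (1.01 and 1.08) the spread was close to that of counting alone. Hes1 had 14 of 36 cells at 0 and Cd24a had 2. Over the 15 pairs of genes, Pearson's r of log-scaled levels across the 36 cells ran from -0.22 to 0.33 with a median of 0.02, and the highest was that of Sox9 and Hes1. In raw UMIs, where all genes share the depth of the cell, r ran from 0.18 to 0.62. These are weak correlations in sparse counts and no relation is read from them.

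**Figure D4:**
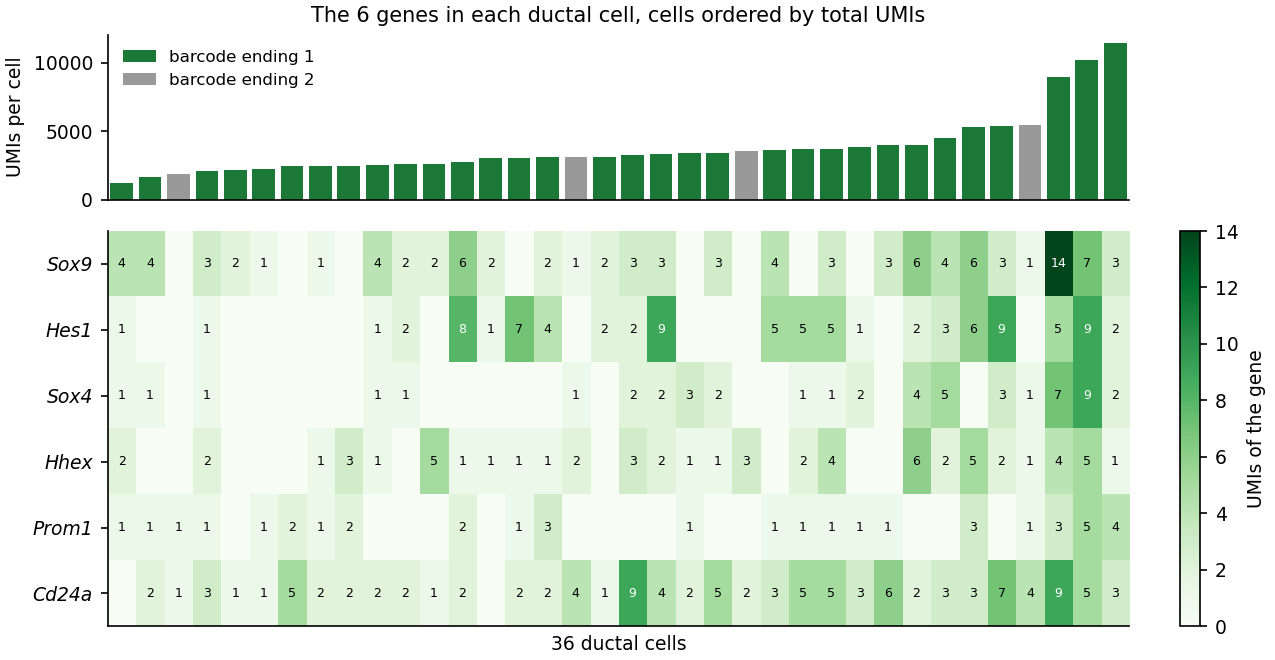
UMIs of the 6 genes (rows) in each of the 36 ductal cells (columns, ordered by total UMIs), with an empty field for 0 UMIs, under bars of the total UMIs of each cell coloured by barcode ending. The highest field is 14 UMIs of Sox9 in 1 cell, and Cd24a is at 0 in 2 cells and Sox4 in 16.

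The barcode endings divided the ductal cells into 32 and 4. Hhex gave 462 CPM under ending 1 and 431 CPM under ending 2 (56 and 6 UMIs, ratio 1.07, 0.463 to 3.04), and Cd24a gave 842 and 791 CPM (1.06, 0.571 to 2.20). Hes1 had 90 UMIs under ending 1 and 0 under ending 2, at least 3.44-fold higher. Sox9 had 97 and 2 UMIs, a ratio of 5.57 (1.5 to 46.6). Sox4 and Prom1 had 2 UMIs each in the 4 cells, with intervals that include equal levels. The level of Hes1 and Sox9 in duct cells was thus that of the ending 1 cells, and with 4 cells under ending 2 a replicate difference and a difference between single cells cannot be told apart.

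Acinar cells held low counts of most of the 6 genes, and these were set beside the levels in B or plasma, T or NK and endothelial cells, 337 cells with a median of 1923 UMIs. Sox9 had 0 UMIs there, which allows up to 0.890% of cells and 3.81 CPM, against 42 UMIs in 13.1% of acinar cells. The acinar level of Sox9 was at least 9.35-fold higher, and that of Prom1 18.0 times higher (2.97 to 738) over 1 UMI. The acinar level was lower for Hes1 at 0.101 times that of the 337 cells (0.0556 to 0.171). It was also lower for Sox4 at 0.249 times (0.131 to 0.450) and for Hhex at 0.0311 times (0.00365 to 0.119). Without the enzyme genes these were 0.213 (0.117 to 0.362), 0.525 (0.276 to 0.951) and 0.0656 (0.00770 to 0.252). Of the 337 cells, the endothelial cells held 101 of 106 UMIs of Hes1 and 39 of 43 of Sox4. For Cd24a the direction depended on the total, at 0.615 times with all UMIs (0.485 to 0.779) and 1.30 times without the enzyme genes (1.03 to 1.65). Against T or NK cells alone, which had 0 UMIs of Cd24a, the acinar level was at least 7.75-fold higher. Hes1 also had 0 UMIs there, and its acinar ratio had a lower end of 0.641 with all UMIs and 1.36 without the enzyme genes. Hes1 and Sox4 in acinar cells did not differ beyond counting error from B or plasma cells (0.565, 0.198 to 1.97, and 1.41, 0.332 to 12.7). Most acinar UMIs of Sox9 and Prom1 came from barcodes of ending 1, as did most acinar UMIs of all genes (1047470 against 132263). Sox9 had 41 UMIs in the 229 cells of ending 1 (39.1 CPM) and 1 UMI in the 46 cells of ending 2 (7.56 CPM), a ratio of 5.18 (0.879 to 209). Prom1 had 27 and 0 UMIs, a ratio with a lower end of 0.863. Both intervals include equal levels. Whether free RNA contributed to the acinar counts was not tested.

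The genes were also counted relative to the duct transcripts of the same cells. The 4 acinar cells that also met the ductal rule were left out, which left 271 cells with 48 UMIs of Krt19, Spp1, Ambp and Epcam. Per 1000 of these UMIs the acinar cells held 750 UMIs of Sox9 (473 to 1180) where ductal cells held 39.7. The acinar ratio was 18.9 times the ductal for Sox9 (12.5 to 27.9), 35.5 times for Prom1 (20.7 to 60.0) and 61.5 times for Cd24a (47.6 to 79.8). For Hes1 it was 7.50 times (3.84 to 13.5) and for Sox4 15.6 times (8.12 to 28.2). For Hhex it was 0, with an upper end of 3.18. The 4 duct genes are those of the ductal rule, and acinar cells with 5 or more of their UMIs were left out. An acinar ratio above the ductal one therefore follows in part from the classing, and no source is read from it. Endothelial cells also lay above the ductal ratio, at 399 times for Hes1, 278 for Sox4, 287 for Cd24a and 115 for Hhex. Their Prom1 ratio was 9.36 (0.231 to 55.4), and for Sox9 it was 0, with an upper end of 13.5. In the 33 of these acinar cells with a Sox9 UMI the 4 duct genes stood at 42.1 CPM (20.2 to 77.5), and in the 238 without one at 41.5 CPM (29.4 to 57.0). These 33 cells were deeper, with a median of 3056 against 2039 UMIs. The 4 cells left out were chosen by the same duct genes. Over all acinar cells the duct genes stood at 141 CPM (98.7 to 195) in the 36 with a Sox9 UMI. In the 239 without one they stood at 46.5 CPM (33.7 to 62.7). Of the 36 cells 3 met the ductal rule, and of the 239 cells 1 did. Without the 4 cells the acinar level was 31.3 CPM for Sox9, 22.6 for Prom1 and 116 for Cd24a.

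**Figure D5:**
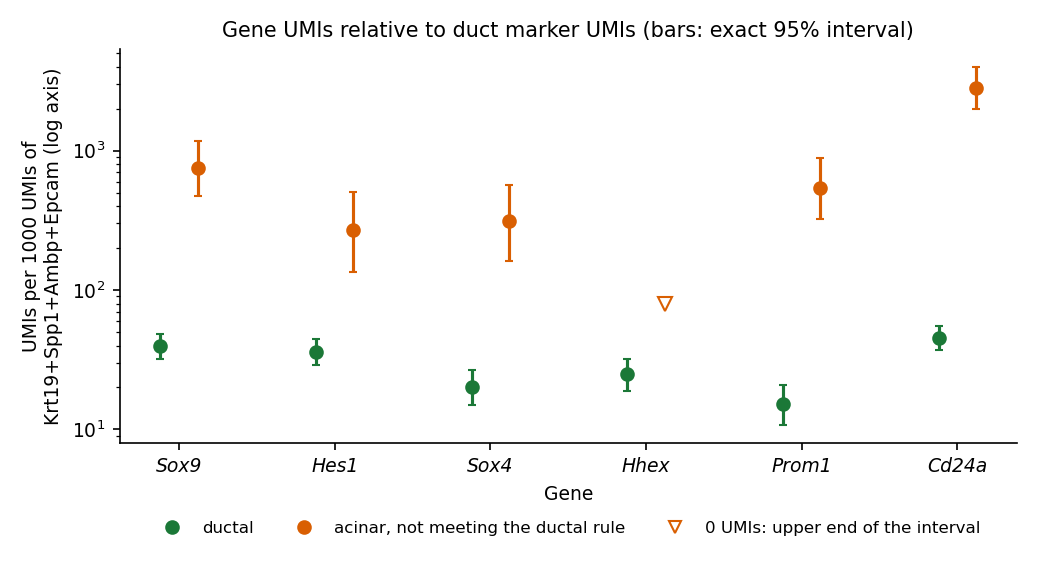
UMIs of each gene per 1000 UMIs of Krt19, Spp1, Ambp and Epcam on a log axis, as points with exact 95% intervals, in ductal cells and in the 271 acinar cells that did not meet the ductal rule. The acinar points lie above the ductal ones for 5 genes, 750 against 39.7 for Sox9, and the triangle is the upper end of the interval for Hhex, which had 0 UMIs in these acinar cells. The genes in the denominator are those of the ductal rule, so the ductal points are low in part through the classing.

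Acinar cells were also ranked by the share of Tff2, the gene that drives the recombinase, among their UMIs and divided into 92, 92 and 91 cells, with Tff2 at 3013, 6057 and 9510 CPM. From the lowest to the highest group Sox9 stood at 29.0, 33.4 and 42.7 CPM, Prom1 at 20.7, 16.7 and 32.6 CPM and Cd24a at 91.1, 115 and 141 CPM. The intervals of the lowest and highest groups overlapped for each of the 3 genes. Hes1 ranged over 7.53 to 29.0 CPM and Sox4 over 10.0 to 24.8 CPM, from 3 to 7 UMIs per group. Depth moved with the ranking, with medians of 1492.5, 2733.5 and 2710 UMIs, and its part was not tested. Leaving out the 7 ending 1 cells whose barcode sequence also stood under ending 2 moved the log2 ratio of ductal over acinar cells from 4.35 to 4.34 for Sox9 and from 2.82 to 2.81 for Cd24a.

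Finally, each gene was compared with 3565 genes of at least 50 UMIs by the Euclidean distance of log2 CPM, centred on each gene's mean, over 9 groups of cells (the acinar, ductal and endothelial classes and the subgroups of the other cells with at least 10 cells). The pattern nearest to Sox9 was that of Krt8 (distance 2.07, where the median gene had 9.20), followed by Cbs, Cldn7, Prr15l and Spint1. Nearest to Prom1 were Dsg2 (1.52), a desmosomal cadherin, Cldn10, Smim22, Cdh1, the epithelial cadherin, and Spint1. Among the nearest to Hes1 were Rhob (2.14), Ctnnd1, Mgst1 and Dusp3. Nearest to Sox4 were Cbx6 (1.98), Nav2, Tspan7, Cuedc1 and Mesdc1. Hhex had Gmnn (2.71), Map3k1, Zcchc11, Scaf11 and Cyfip1 as its nearest genes. Cd24a had no near pattern, with Rassf3 closest at 5.38 where the median gene had 9.19, followed by Mtmr2, 4833439L19Rik, Nudt4 and Fam63a. Groups with 0 UMIs take the same floor value for each gene of like depth, so genes with few UMIs can lie near each other through their zeros.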

How the data were processed

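The deposited table holds raw UMI counts, genes in rows and cells in columns, per the file headers, and Cell Ranger and the mm10 build are named in the submitters' processing notes. The sources used here do not state their roles or the authors' filters on cells and genes. The table has 14793 rows (4 symbols on 2 rows were summed) and 728 cells of 2 labelled samples in 1 group, with 1004 to 53222 UMIs per cell (median 2085.5). Cells could not be tied to samples, so the table was treated as 1 sample and no test was run.

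UMIs were summed per class and scaled to CPM with Python 3.11.15, numpy 2.4.6, pandas 2.3.3 and scipy 1.17.1. A cell that met several rules went to the first of acinar, ductal and endothelial. Intervals are exact 95% intervals, Poisson for levels, conditional for ratios and Clopper-Pearson for shares, and cover counting error only. Where a count is 0, the limit is that of 3 counts over the class, and a fold given as at least is computed from it. For log2 ratios a prior of 0.5 counts was added, a gene was called at 2-fold, and the floor was 50 UMIs over both classes. Other cells went to the subgroup with most marker UMIs, at least 3, or to erythroid cells with at least 10% globin UMIs. Thinning drew 1000 UMIs per cell without replacement (seed 0). Scrublet, in scanpy 1.11.5, called 3 cells (0.412%) as doublets, which were kept. The scripts were tested on simulated data. The text names the 6 genes, genes of the lists that passed the floor and the 5 nearest patterns per gene, and says where others were chosen after their values were seen; some genes under this rule are not reported here. The 6 genes and the lists were chosen with earlier results of these data known. Alternatives covered thresholds, totals, doublets, barcode endings, prior and floor.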

Additional observations from a re-analysis of the deposited data

How the results depend on the processing

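The counts of 6, 5 and 5 genes higher in ductal than in acinar, endothelial and other cells were the same under 16 of 18 alternatives. After thinning to 1000 UMIs per cell they were 1, 2 and 1, equal to the number of genes still over the floor. In ending 2 alone, with 4 ductal, 46 acinar, 1 endothelial and 10 other cells, they were 0, 0 and 0 because no gene passed the floor. There the log2 ratio over endothelial cells was -0.50 for Sox9, -4.40 for Hes1 and -2.08 for Sox4, and over other cells -2.47 for Hes1, the reverse of the values above. The sign for Sox9 comes from the prior, since it had 2 UMIs in ductal cells there and 0 in the 1 endothelial cell. Prom1, under the floor in this comparison, had the same UMIs and also -0.50. Outside ending 2, each of the 306 log2 ratios of the 6 genes under an alternative stayed at least 2-fold higher in ductal cells. Leaving out the cells that met several rules, or the doublets, took the log2 ratio of Hhex over acinar cells from 7.77 to 10.05 and 10.10, since acinar cells then had 0 UMIs. With a floor of 1 UMI over both classes, 26.0% of genes were at least 2-fold higher in ductal than in endothelial cells. A gene with 1 UMI in ductal and 0 in endothelial cells counts among them, with a log2 ratio of 3.09 through the prior. A gene with 0 and 1 UMIs has -0.08, so this share is not a like for like background either. Depth limits each gene, with 2.5 UMIs of Sox9 and Cd24a and 1 UMI of the other four in the median ductal cell. No paired analysis was possible because cells could not be assigned to the 2 replicates of the 1 group, and leaving out a replicate was not possible for the same reason.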

Other observations

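ID proteins, which bind and block basic helix-loop-helix factors as HES proteins do, differed in opposite directions between ductal and endothelial cells. Id2 had 80 UMIs in 32 of 36 ductal cells, a level of 592 CPM, which was 63.5 times the acinar level (33.7 to 132), and 6.31 times the endothelial level (4.21 to 9.63). Id1 and Id3 had 0 UMIs in ductal cells and 330 and 690 UMIs in endothelial cells, where 118 and 154 of 160 cells had one. They were at least 38.7-fold and 81.0-fold lower in ductal cells. Acinar cells held 3 and 7 UMIs of them. The fourth gene of the list, Id4, stayed under the floor. These are values of 1 pooled sample with no replicate check.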
